A study of Mus musculus with 26 samples.

Results

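The genes described here encode the extracellular and membrane parts of Wnt signalling with a few of its transcriptional targets, measured by RNA-seq in mouse embryonic stem cells during retinoic acid differentiation. They were chosen by symbol alone: every numbered Wnt and Fzd gene, Dkk1 to Dkk4, the Sfrp genes, the R-spondins Rspo1 to Rspo4, the receptors Lgr4 to Lgr6, Lrp5, Lrp6, Axin2, Nkd1, Nkd2 and Sp5. The rule found 50 of the 55471 genes in the count table: 19 ligands, 12 receptors, 8 secreted antagonists, 7 R-spondins and Lgr receptors, and 4 feedback targets. Enough reads for a test were present for 48 of them, and 40 reached a mean of at least 5 CPM (a gene's count scaled to the TMM-adjusted library total) in at least 1 group. Wnt8b and Dkk4 were too low to test.

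Wnt ligands are lipid-modified secreted proteins that bind Frizzled receptors together with the co-receptors Lrp5 and Lrp6. In the canonical branch this halts the breakdown of beta-catenin, which then acts with TCF and LEF factors on target genes, while other ligands signal through Frizzled and Ror receptors without beta-catenin. Secreted Sfrp proteins bind ligands, Dkk1 and Dkk2 bind the Lrp co-receptors, and R-spondins with their Lgr receptors protect Frizzled from removal at the cell surface. Axin2, Nkd1, Nkd2 and Sp5 are induced by the pathway and feed back on it. In embryonic stem cells canonical signalling is known for its part in self-renewal, and in the embryo Wnt ligands pattern the tissues that form as pluripotency is lost.

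The 26 libraries were bulk mRNA from KH2, a mouse embryonic stem cell line, either wild type or from 1 of 2 lines carrying a knockout of Nap1l1, a histone chaperone gene, labelled alpha-KO and full-KO. Cells were taken at day 0 and after 2 and 4 days of retinoic acid, with 3 libraries per genotype and day except full-KO at day 0, which had 2. The labels do not say what the alpha form is, and the library names give 1 code per knockout genotype, so that genotype and line cannot be told apart. Nothing in the labels says that replicates were separate cultures, and the p-values then measure the spread between these samples, which may be technical. In bulk RNA, fewer cells of a type and less RNA per cell cannot be told apart.

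Library totals ran from 13537267 to 20569706 counts. Nap1l1 itself stood at 997 to 1068, 856 to 862 and 383 to 413 CPM in wild type at days 0, 2 and 4. It was at 569 to 621, 609 to 628 and 339 to 349 CPM in alpha-KO, and at 397 to 401, 364 to 369 and 221 to 238 CPM in full-KO, so every knockout library lay below wild type of its day and the transcript was still counted in both lines. Counts per gene do not show which part of it was removed. The summed level of 7 pluripotency markers went from 3329 to 3441 CPM at day 0 to 71.5 to 81.99 CPM at day 4 in wild type, and stood at 264.1 to 283.1 CPM in alpha-KO and 393.6 to 413.3 CPM in full-KO at day 4. A list of 12 fibroblast markers, with none at 0 counts, summed to 2497 to 3308 CPM in wild type, 1337 to 2075 in alpha-KO and 286.4 to 432.6 in full-KO at day 0. At day 2 the same sums were 757 to 821.8, 283.6 to 351.3 and 145.3 to 153.3 CPM, and at day 4 they were 1576 to 1668, 803.6 to 904.2 and 660.5 to 706.1 CPM. The fibroblast markers did not move together: from day 2 to day 4 of wild type 7 were higher and 4 lower (edgeR, adjusted p under 0.05). Col1a1 went from a mean of 288.3 to 562.1 CPM and Col3a1 from 58.18 to 565.3. Col1a2 went from 208.4 to 140.2 CPM and Thy1 from 21.79 to 13.19. The part of fibroblast-like cells in the results that follow was not tested.

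Promoter sequence from RefSeq (GRCm38.p6) was at hand for 33 of the 50 genes, in 36 windows of 250 bases upstream of a RefSeq start site. Some windows overlap exons that GENCODE annotates for the same gene, such as Fzd10 (all 250 bases), Wnt2b (212) and Fzd9 (183). All 36 are counted here. The TCF/LEF core CTTTGAT or its variant CTTTGAA, searched on both strands, was in 4 of the 36 windows (11.1%), against 7.48% of the 32851 windows of the same length. A direct repeat of the retinoic acid receptor half-site AGGTCA, where each copy could also be the related form AGTTCA or the further form written GGTTCA, with 5 bases between the copies, was in 0 of the 36 windows and in 0.0548% of all windows. Shown first are the windows of Sp5, a feedback target that was lower in both knockout lines at day 2, and of Wnt11, a ligand whose rise was smaller in both lines. The Sp5 window is chr2:70474673-70474922, plus strand, with its match 104 bases before the start site. The Wnt11 window shown is chr7:98834862-98835111, plus strand, with a match on the minus strand 51 bases before the start. A further Wnt11 window, chr7:98838595-98838844, held no match and is not shown. Capitals mark the matched motif, and each sequence is read 5′ to 3′ on the gene's strand.
Sp5: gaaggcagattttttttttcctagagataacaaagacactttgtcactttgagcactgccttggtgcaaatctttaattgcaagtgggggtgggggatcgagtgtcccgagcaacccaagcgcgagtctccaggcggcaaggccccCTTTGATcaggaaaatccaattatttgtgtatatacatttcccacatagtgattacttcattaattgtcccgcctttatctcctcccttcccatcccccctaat
Wnt11: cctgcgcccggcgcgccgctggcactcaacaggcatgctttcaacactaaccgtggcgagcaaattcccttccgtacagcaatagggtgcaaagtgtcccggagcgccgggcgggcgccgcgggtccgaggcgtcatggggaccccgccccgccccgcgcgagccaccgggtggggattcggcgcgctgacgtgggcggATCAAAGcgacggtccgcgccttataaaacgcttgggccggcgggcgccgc
A further match was in Wnt5b, at chr6:119449441-119449467, 71 bases before one of its start sites on the minus strand, and only the match and 10 bases on each side are shown.
Wnt5b: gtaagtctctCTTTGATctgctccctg
The last match, in the antagonist Dkk1, lies in the part of its window that GENCODE annotates as exon of Dkk1 itself (169 of the 250 bases), so it is not upstream of that annotated start and is not shown. The windows of Axin2, Nkd1 and Nkd2, the other feedback targets, held neither form of the motif. The Nkd1 window, chr8:88527383-88527632, lies inside the annotated gene, which begins at 88521354, so it does not cover the promoter of that annotated start. A match is a description of these letters and not evidence that a factor binds there.

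In wild type the summed level of the Wnt family was higher at each later day, and in both knockout lines it was lower than in wild type at all 3 days. These sums are a description, without a test. Counted per kilobase of exon, so that genes can be added, the 19 Wnt genes summed to 13.8 ± 0.643, 52.4 ± 0.850 and 133 ± 1.81 CPM per kb at days 0, 2 and 4 of wild type (mean ± SD, n = 3). The sum was 7.37 ± 0.602, 20.8 ± 1.08 and 65 ± 6.54 CPM per kb in alpha-KO and 4.68 ± 0.0156 (n = 2), 19.2 ± 1.46 and 52.7 ± 6.83 in full-KO. At each day the lowest wild-type library lay above the highest library of either knockout line. The Frizzled sum was closer between genotypes, at 92 ± 2.27, 122 ± 4.71 and 178 ± 3.22 CPM per kb in wild type, 100 ± 1.64, 134 ± 5.41 and 170.0 ± 5.09 in alpha-KO and 109 ± 0.198, 112 ± 3.96 and 191 ± 0.932 in full-KO.

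Counts of called genes put these sums beside the genome. A gene was called when the edgeR quasi-likelihood test gave an adjusted p under 0.05, with adjustment over the 18412 genes tested. From day 0 to day 2 of wild type 34 of the 48 tested genes rose and 11 fell, where 36.7% of all genes tested rose and 34% fell. From day 2 to day 4 there were 23 higher and 16 lower, against 30.2% and 29.2% of all genes. At day 2 the share of the set that was lower in the knockout lines exceeded the share over all genes. In alpha-KO 8 of the 48 were higher and 32 lower than wild type, where 19.9% of all genes were higher and 20.3% lower, and in full-KO 7 were higher and 33 lower, where 23.8% were higher and 23.8% lower. At day 0 alpha-KO had 9 higher and 14 lower (17.7% and 20.9% of all genes) and full-KO 6 higher and 19 lower (16.2% and 17.7%). At day 4 alpha-KO had 14 higher and 17 lower (28.7% and 24% of all genes) and full-KO 13 higher and 21 lower (25.1% and 24.5%). The comparisons of the 2 lines with wild type use the same wild-type libraries.

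**Figure D1:**
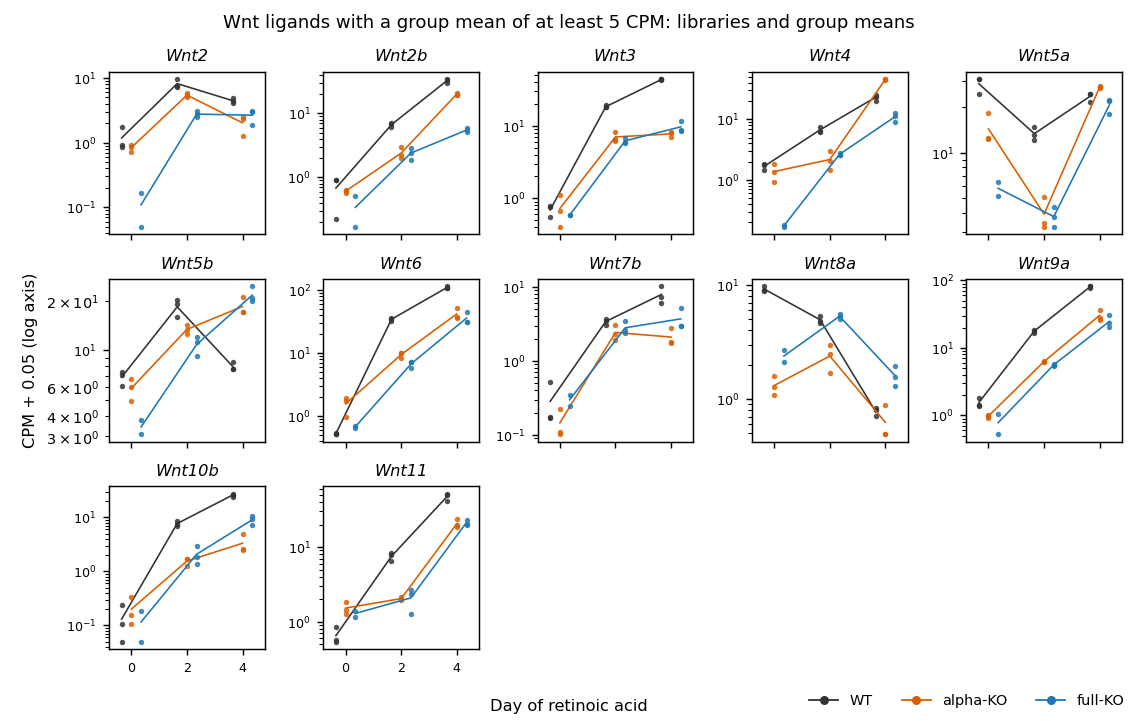
CPM of the Wnt ligands with a group mean of at least 5 CPM in every library, by day of retinoic acid and genotype; points are libraries, lines join group means, and each axis is logarithmic after 0.05 is added. Wnt6, Wnt9a, Wnt3, Wnt10b and Wnt11 climb steeply in wild type, and the points of both knockout lines lie below wild type at days 2 and 4, while Wnt5b ends higher in the knockout lines.

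Most ligands rose in wild type. At day 0 only 6 of the 19 had a mean of at least 1 CPM, and 15 did at day 2. Of the 18 tested, 15 rose and 2 fell from day 0 to day 2, where 36.7% of all genes rose and 34% fell. The median log2 change of the ligands was 3.385 beside 0.055 over all genes. The 2 that fell were Wnt5a, a ligand known mainly for signalling without beta-catenin, and Wnt8a, a canonical ligand of the early embryo. From day 2 to day 4 another 10 changes were upward and 4 downward, against 30.2% and 29.2% of all genes.

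Wnt6, a ligand of epithelia and extraembryonic endoderm, took the largest share of the family at day 4 of wild type, 37.2% of the summed CPM per kb. The gene lies at chr1:74771892-74785322 of mm10, and an annotated antisense gene overlaps it. It went from 0.467, 0.492 and 0.462 CPM at day 0 to 35.9, 34.7 and 31.7 at day 2 and 113, 108 and 105 at day 4. At day 2 the alpha-KO libraries held 9.93, 8.35 and 9.82 CPM and the full-KO libraries 7.04, 5.69 and 7.11, with no overlap with wild type. The log2 difference from wild type was -1.86 ± 0.13 (SE, edgeR adjusted p = 3.38e-16) in alpha-KO and -2.37 ± 0.14 (SE, edgeR adjusted p = 2.17e-19) in full-KO. At day 4 the levels were 51.7, 37.3 and 35.4 CPM in alpha-KO and 30.4, 31.3 and 45.1 in full-KO, again all below wild type, with log2 differences of -1.39 ± 0.10 (SE, edgeR adjusted p = 9.19e-16) and -1.61 ± 0.10 (SE, edgeR adjusted p = 1.27e-17). The 40 tested genes nearest to Wnt6 on chromosome 1 had median log2 differences of the opposite sign, 0.517 in alpha-KO and 0.447 in full-KO at day 2. Before retinoic acid the order was not the same: alpha-KO stood at 0.930, 1.88 and 1.71 CPM at day 0, above every wild-type library (1.66 ± 0.43 SE, edgeR adjusted p = 0.00154 on the log2 scale).

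Wnt9a and Wnt3 followed a similar course. Wnt9a, a canonical ligand, reached 17.8 ± 0.890 CPM at day 2 and 80.1 ± 2.31 at day 4 of wild type (mean ± SD, n = 3). Its day 4 libraries held 81.3, 81.6 and 77.4 CPM in wild type, 37, 27.9 and 26.3 in alpha-KO and 23.2, 20 and 30.7 in full-KO. The knockout lines were lower at day 2, with log2 differences of -1.51 ± 0.14 (SE, edgeR adjusted p = 7.54e-13) and -1.67 ± 0.14 (SE, edgeR adjusted p = 2.17e-14), and at day 4, with -1.40 ± 0.10 (SE, edgeR adjusted p = 3.87e-16) and -1.70 ± 0.10 (SE, edgeR adjusted p = 1.11e-18). Wnt3, the ligand that drives primitive streak formation in the mouse embryo, rose from 0.701, 0.492 and 0.726 CPM at day 0 to 18, 19.2 and 17.9 at day 2 and 44.5, 42.7 and 43.9 at day 4 of wild type. In alpha-KO it reached 8.27, 6.47 and 6.20 CPM at day 2 and then 8.25, 6.96 and 7.91 at day 4, so that the further rise of wild type between these days was not seen in the group values. In full-KO the day 4 libraries held 8.81, 8.52 and 11.6 CPM. The day 4 differences from wild type were log2 -2.51 ± 0.12 (SE, edgeR adjusted p = 5.03e-22) and -2.18 ± 0.12 (SE, edgeR adjusted p = 2.36e-20), and none of the libraries overlapped.

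Wnt10b and Wnt11 started near 0. Wnt10b, a canonical ligand, had 0.0584, 0.184 and 0 CPM at day 0 of wild type, 8.61, 6.91 and 7.43 at day 2 and 27.2, 26.3 and 24.2 at day 4. At day 4 it stood at 4.85, 2.47 and 2.51 CPM in alpha-KO and 9.16, 7.13 and 10.7 in full-KO, with no overlap between any 2 of the 3 genotypes. The log2 differences from wild type were -2.99 ± 0.20 (SE, edgeR adjusted p = 4.24e-17) and -1.53 ± 0.18 (SE, edgeR adjusted p = 4.65e-10), and full-KO was higher than alpha-KO by 1.46 ± 0.21 (SE, edgeR adjusted p = 4.39e-07). Wnt11, whose best known roles are in cell movement and kidney branching, held 6.44, 8.33 and 7.68 CPM at day 2 of wild type, 2.11, 1.94 and 1.94 in alpha-KO and 2.33, 1.23 and 2.58 in full-KO. By day 4 it had reached 41.7, 48.9 and 51.4 CPM in wild type, 23.4, 19.6 and 18.3 in alpha-KO and 19.9, 20.6 and 23.3 in full-KO. The knockout libraries were below all wild-type libraries at both days, with log2 differences of -1.90 ± 0.19 (SE, edgeR adjusted p = 9.7e-12) and -1.87 ± 0.18 (SE, edgeR adjusted p = 4.8e-12) at day 2. At day 0 the sign was opposite, 1.31 ± 0.33 (SE, edgeR adjusted p = 0.00126) in alpha-KO and 1.06 ± 0.39 (SE, edgeR adjusted p = 0.0304) in full-KO, at 0.603 CPM in wild type, and the second of these was lost in a fit of only the groups compared (edgeR adjusted p = 0.095) and without wild-type replicate 1 or 2 or either full-KO library (adjusted p from 0.0568 to 0.218).

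Among the 18 tested ligands, none was higher and 15 were lower in alpha-KO at day 2, and none was higher and 12 were lower in full-KO. Of all genes, 19.9% were higher and 20.3% lower in alpha-KO, and 23.8% were higher and 23.8% lower in full-KO. The median log2 differences of the ligands were -1.502 and -1.527, beside 0.006 and 0.017 over all genes. At an unadjusted p under 0.05 the numbers of ligands that differed were 16 and 13. The wild-type day 2 libraries also had the highest fibroblast marker sums and the lowest pluripotency sums of the 3 genotypes, at 383.8 to 398.4 CPM against 619.2 to 656.3 in alpha-KO and 1036 to 1150 in full-KO, and the part of either in the ligand values was not tested. The primitive endoderm markers summed to 393.4 to 420.2 CPM in wild type, 973.4 to 1091 in alpha-KO and 444 to 527 in full-KO at that day. The 8 neural progenitor markers summed to 455.9 to 482.8, 345.9 to 373.8 and 243.3 to 270.1 CPM. Nes alone had means of 288.3, 185.4 and 83.28 CPM, and the other neural markers did not all follow it. Sox1 had means of 62.47, 88.29 and 58.81 CPM. Of the 8 neural markers 2 were higher and 4 lower in alpha-KO, and 1 was higher and 2 lower in full-KO. The part of either marker list in the ligand values was not tested. Wnt2, Wnt2b and Wnt4 were among the lower ligands. Wnt2b had 6.19, 6.97 and 6.75 CPM in wild type, 2.91, 1.94 and 2.21 in alpha-KO and 2.38, 2.85 and 1.84 in full-KO, and Wnt4 had 7.43, 6.09 and 6.37 CPM in wild type, 2, 2.96 and 1.40 in alpha-KO and 2.48, 2.55 and 2.74 in full-KO. Wnt2, a ligand of lung and endothelium, had 9.60, 7.31 and 7.43 CPM in wild type, 5.71, 5.07 and 5.34 in alpha-KO and 3.04, 2.40 and 2.69 in full-KO. Its alpha-KO difference of -0.60 was not called without wild-type replicate 1 (edgeR adjusted p = 0.119) or alpha-KO replicate 2 (adjusted p = 0.0565).

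By day 4 the ligands had parted. In alpha-KO 2 were higher and 11 lower, and in full-KO 2 were higher and 13 lower, with medians of -1.177 and -1.316 beside 0.059 and 0.021 over all genes. Of all genes, 28.7% were higher and 24% lower in alpha-KO, and 25.1% were higher and 24.5% lower in full-KO. Wnt5b, a paralog of Wnt5a known for signalling without beta-catenin, was higher in both lines. It stood at 7.62, 8.46 and 7.64 CPM in wild type, 17.1, 17 and 21 in alpha-KO and 24.4, 19.7 and 20.6 in full-KO, with log2 differences of 1.21 ± 0.13 (SE, edgeR adjusted p = 3.66e-11) and 1.44 ± 0.12 (SE, edgeR adjusted p = 1.62e-13). At day 2 it had been lower in both, with log2 differences of -0.46 ± 0.12 (SE, edgeR adjusted p = 0.0015) and -0.77 ± 0.12 (SE, edgeR adjusted p = 6.29e-07). The gene overlaps Fbxl14, and the sources used here do not give whether counting used strand. Wnt4, which acts in kidney and gonad development, separated the lines from each other. At day 4 it was at 20.2, 23.3 and 25.4 CPM in wild type, 45.6, 44.7 and 46 in alpha-KO and 12.8, 11.2 and 8.97 in full-KO, higher than wild type in the first line (0.98 ± 0.12 SE, edgeR adjusted p = 9.24e-10) and lower in the second (-1.07 ± 0.13 SE, edgeR adjusted p = 1.54e-09). Wnt2b, with 34.6, 30.4 and 32.9 CPM in wild type, 19.5, 19.7 and 21 in alpha-KO and 5.39, 5.17 and 5.81 in full-KO, was lower in both, with log2 differences of -0.70 and -2.58. Full-KO Wnt2 at day 4 (-0.76) had an adjusted p of 0.0696 by edgeR without full-KO replicate 2.

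Wnt5a, Wnt5b and Wnt8a were the 3 ligands with a mean of at least 5 CPM at day 0 of wild type. Wnt8a made up 38.1% of the summed Wnt level in wild type at day 0, 9.92% in alpha-KO and 28.5% in full-KO, where it still had the largest share. It stood at 8.94, 8.86 and 9.70 CPM in wild type, 1.22, 1.53 and 1.03 in alpha-KO and 2.62 and 2.05 in full-KO, and the knockout lines were lower, with log2 differences of -2.86 ± 0.21 (SE, edgeR adjusted p = 4.2e-15) and -1.96 ± 0.23 (SE, edgeR adjusted p = 1.42e-09). In wild type it then fell to 0.653, 0.774 and 0.747 CPM at day 4, when full-KO was higher, at 1.91, 1.5 and 1.24 (1.08 ± 0.30 SE, edgeR adjusted p = 0.0025). Wnt5a had 24.5, 30.6 and 30.8 CPM in wild type at day 0, 12.4, 12.3 and 18.3 in alpha-KO and 6.37 and 5.15 in full-KO, and 14.7, 13.1 and 12.2 CPM in wild type, 3.37, 3.18 and 5.07 in alpha-KO and 4.30, 3.19 and 3.69 in full-KO at day 2. It was lower in both lines at both days, with log2 differences of -0.99 and -2.30 at day 0 and -1.78 and -1.84 at day 2, and not called at day 4 (0.21 and -0.19).

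The other tested ligands were low. Wnt7a and Wnt7b, known from the nervous system and epithelia, reached 4.57 and 7.88 CPM at day 4 of wild type, and 0.609 and 2.05 in alpha-KO and 0.621 and 3.66 in full-KO. Both were lower in both lines at day 4, with log2 differences of -2.90 and -2.86 for Wnt7a and of -1.94 and -1.10 for Wnt7b. In wild type at day 0 Wnt7a rested on 1 count over the 3 libraries and 191 at day 2, a ratio of 198 with a 95% counting interval of 35 to 7840 that covers counting error only. Wnt1, Wnt3a, Wnt9b, Wnt10a and Wnt16 stayed at or under 3.47 CPM in every group mean. The highest group means of the classical canonical ligands Wnt1 and Wnt3a were 0.517 and 0.705 CPM.

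**Figure D2:**
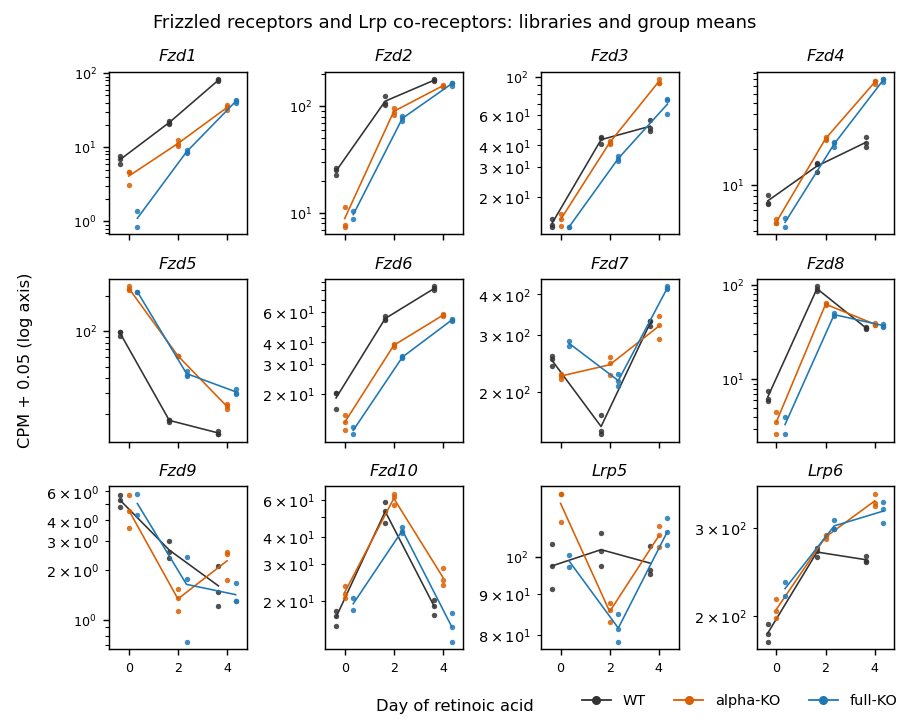
CPM of the Frizzled receptors and the co-receptors Lrp5 and Lrp6 in every library, by day and genotype; points are libraries, lines join group means, and each axis is logarithmic after 0.05 is added. Fzd5 lies higher in both knockout lines at all 3 days, Fzd4 rises further in them by day 4, and Fzd1 and Fzd6 lie lower.

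All 12 receptor genes had a mean of at least 1 CPM in every wild-type group. Fzd7, a receptor known for its part in stem cell self-renewal, made up 59.9% of the Frizzled sum in wild type at day 0. From day 0 to day 2 of wild type 8 of the 12 receptors rose and 3 fell, where 36.7% of all genes tested rose and 34% fell. Fzd8 rose most, from 6.19, 7.50 and 5.81 to 85.7, 91.4 and 96.3 CPM, and Fzd2 went from 25.1, 26.1 and 22.8 to 107, 102 and 125 CPM and on to 172, 174 and 179.7 at day 4. Fzd5 fell the most, by 2.46 on the log2 scale, and Fzd7 fell from 258, 251 and 240.4 to 151, 147 and 169 CPM before it rose to 319, 329.9 and 330.3 at day 4. Lrp6 rose by 0.54 and Lrp5 was not called at 0.07.

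Fzd5, a receptor needed for yolk sac vessels and eye development, was higher in both knockout lines at every day. Its locus is chr1:64730558-64737751. At day 0 it had 99.1, 98.5 and 90.8 CPM in wild type, 240.5, 226 and 229 in alpha-KO and 216 and 217 in full-KO. At day 2 the values were 17.5, 17.7 and 17.1 CPM in wild type, 61.5, 61.9 and 61.9 in alpha-KO and 46.1, 42.8 and 42 in full-KO. The groups of the knockout lines did not overlap wild type at either day, and the log2 differences were 1.27 ± 0.05 (SE, edgeR adjusted p = 1.11e-25) and 1.17 ± 0.05 (SE, edgeR adjusted p = 7.67e-23) at day 0, and 1.82 ± 0.06 (SE, edgeR adjusted p = 3.27e-27) and 1.32 ± 0.06 (SE, edgeR adjusted p = 3.57e-22) at day 2. At day 4 they were 0.75 and 1.17, also called. Its share of the Frizzled sum at day 0 was 15.1% in wild type, 33.5% in alpha-KO and 28.6% in full-KO. Genes of chromosome 1 were shifted upward as a whole: their median log2 difference from wild type was 0.413, 0.405 and 0.498 in alpha-KO at days 0, 2 and 4, and 0.270, 0.274 and 0.344 in full-KO. Among the 40 tested genes nearest to Fzd5 the medians were 0.394, 0.553 and 0.680 in alpha-KO and 0.469, 0.709 and 0.564 in full-KO, and the part of this shift in the Fzd5 values was not tested.

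Fzd7 lies on the same chromosome, at chr1:59482424-59486955. At day 2 it stood at 256, 245 and 226 CPM in alpha-KO and 226, 215 and 207 in full-KO, above every wild-type library, with log2 differences of 0.64 ± 0.05 (SE, edgeR adjusted p = 1.57e-14) and 0.47 ± 0.05 (SE, edgeR adjusted p = 5.76e-11). The medians of its 40 tested neighbours at that day were 0.540 and 0.579, close to those differences. At day 0 the alpha-KO difference was -0.16, against a neighbour median of 0.420, and the full-KO difference was 0.17, which had an edgeR adjusted p of 0.208 without full-KO replicate 1 and 0.0861 without wild-type replicate 3. Wnt6, Wnt10a and Lgr6 are the other genes of the set on this chromosome.

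Fzd4, a receptor for Wnt ligands and for norrin in blood vessels, changed sides. At day 0 it was lower in both knockout lines, with 6.83, 6.70 and 8.05 CPM in wild type, 4.59, 4.99 and 4.60 in alpha-KO and 4.28 and 5.08 in full-KO. At day 4 it was higher in both, at 76.9, 72.9 and 76.5 CPM in alpha-KO and 79.8, 80.4 and 76.4 in full-KO against 22.6, 21.1 and 25.3 in wild type, with no overlap. The log2 differences went from -0.60 ± 0.12 (SE, edgeR adjusted p = 7.5e-05) to 1.71 ± 0.07 (SE, edgeR adjusted p = 5.39e-24) in alpha-KO and from -0.62 ± 0.14 (SE, edgeR adjusted p = 0.000446) to 1.78 ± 0.07 (SE, edgeR adjusted p = 1.77e-24) in full-KO. The summed level of 8 primitive endoderm markers was also higher at day 4 in both lines, at 1333 to 1521 and 885.1 to 1060 CPM against 533 to 635.1 in wild type, and its part in the Fzd4 values was not tested. Fzd1 and Fzd6 stayed on 1 side: both were lower in both lines at all 3 days. Fzd1 reached 78.6, 79.7 and 83.6 CPM at day 4 of wild type, 34.5, 31.9 and 36.9 in alpha-KO and 43.1, 40 and 41.5 in full-KO (-1.23 ± 0.08 SE, edgeR adjusted p = 1.28e-17 and -0.96 ± 0.08 SE, edgeR adjusted p = 2.86e-14). Fzd6, known from planar polarity in skin and hair, had log2 differences between -0.47 and -0.75 in the 6 comparisons.

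The remaining Frizzled receptors differed from wild type at some days only. Fzd2 was lower at day 0, with 7.38, 7.63 and 11.4 CPM in alpha-KO and 8.75 and 10.5 in full-KO (-1.47 and -1.36 on the log2 scale), and at day 2 by a smaller amount (-0.32 and -0.53). The difference at day 4 in alpha-KO, -0.17, was lost without wild-type replicate 3 (edgeR adjusted p = 0.0774) or alpha-KO replicate 3 (adjusted p = 0.0679). Fzd8 was lower in both lines at days 0 and 2 and not called at day 4 (0.14 and 0.08). Fzd3, an axon guidance receptor, was higher at day 4, at 92.5, 92.7 and 97.6 CPM in alpha-KO and 73.1, 74.5 and 61.2 in full-KO against 48.4, 50.4 and 56.3 in wild type. Fzd10 had opposite signs at day 4, 0.46 in alpha-KO and -0.31 in full-KO, and the second was lost without full-KO replicate 1 (edgeR adjusted p = 0.131) or wild-type replicate 2 (adjusted p = 0.0848). Fzd9 was at or under 5.25 CPM in every group mean. Lrp6 was higher in 5 of the 6 comparisons by 0.16 to 0.39. In alpha-KO at day 2 its difference of 0.10 was called as reported, but not under RLE scaling (edgeR adjusted p = 0.0722), by DESeq2 (adjusted p = 0.0562), with no low-count filter (adjusted p = 0.0976), with at least 1 CPM in 2 libraries (adjusted p = 0.0626), or on leaving out any 1 of the 6 libraries (adjusted p from 0.0561 to 0.162). Lrp5 was lower in both lines at day 2 (-0.26 and -0.33), and its means lay between 81.5 and 117 CPM throughout. At day 0 its alpha-KO libraries, with 110.5, 120 and 119.8 CPM, lay above the 97.4, 103.8 and 91.3 of wild type.

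**Figure D3:**
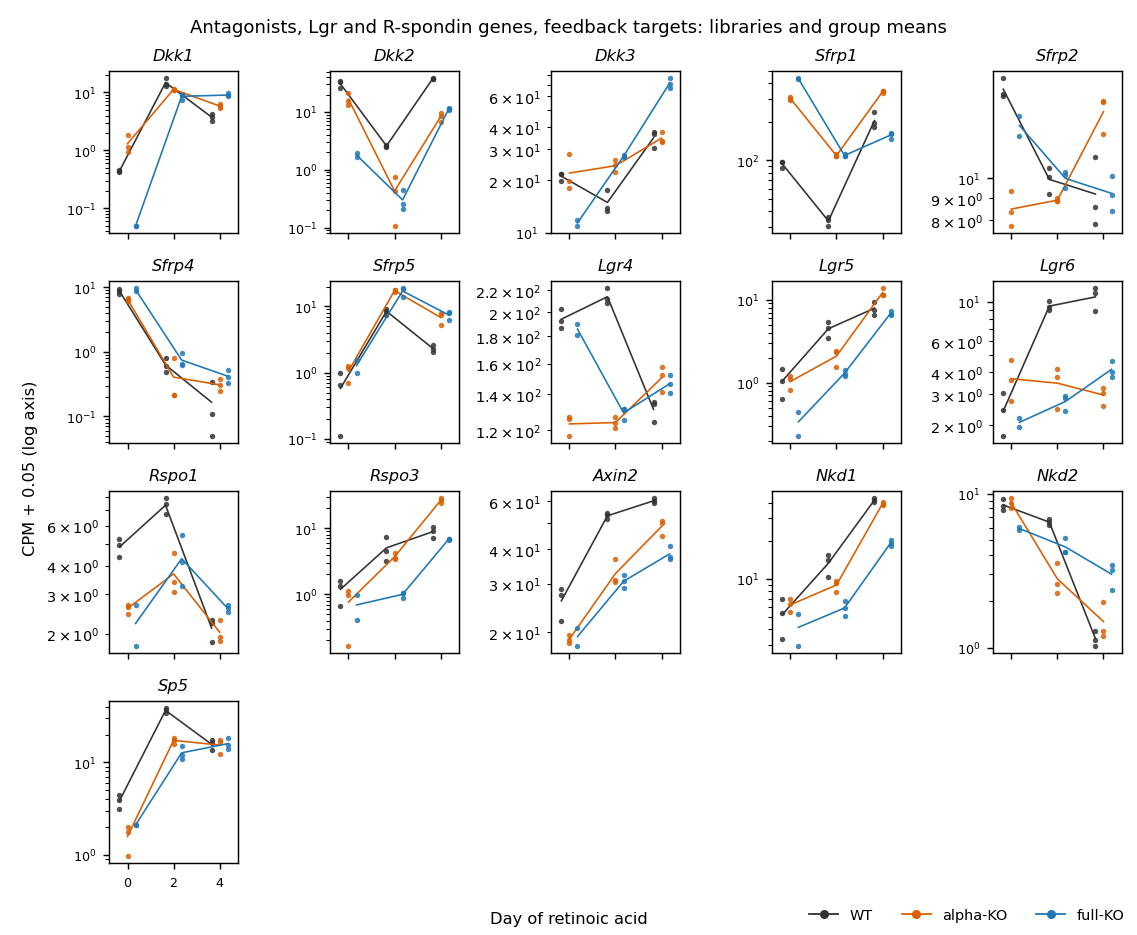
CPM of the well expressed secreted antagonists, R-spondins, Lgr receptors and feedback targets in every library, by day and genotype; points are libraries, lines join group means, and each axis is logarithmic after 0.05 is added. Axin2 lies lower in both knockout lines at all 3 days, Sp5 is lower at days 0 and 2 and level at day 4, and Sfrp1 is several times higher in them at days 0 and 2.

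Among the antagonists, Sfrp1, which binds Wnt ligands, was higher in both knockout lines at days 0 and 2. At day 0 it had 96.7, 96.9 and 87.2 CPM in wild type, 297, 305 and 312 in alpha-KO and 434 and 438 in full-KO, log2 differences of 1.70 ± 0.06 (SE, edgeR adjusted p = 9.19e-27) and 2.22 ± 0.06 (SE, edgeR adjusted p = 1.19e-29). At day 2 it had 30.6, 33.8 and 35.9 CPM in wild type, 108, 111 and 107 in alpha-KO and 112, 108 and 108 in full-KO, with no overlap between wild type and either line. At day 4 the lines parted: 339.8, 347 and 347 CPM in alpha-KO lay above the 182, 195 and 237 of wild type (0.75 ± 0.06 SE, edgeR adjusted p = 1.22e-15), and 161, 165 and 147 in full-KO lay below (-0.38 ± 0.06 SE, edgeR adjusted p = 2.79e-07). Sfrp5, an antagonist of endoderm, was higher in both lines at days 2 and 4, with 8.61, 7.38 and 9.24 CPM in wild type, 17.9, 16.5 and 17.5 in alpha-KO and 18.7, 18.5 and 13.9 in full-KO at day 2 (1.04 and 1.02 on the log2 scale). Its full-KO difference at day 0 (1.18) was lost in a fit of only the groups compared (edgeR adjusted p = 0.11) and without wild-type replicate 2 or 3 or full-KO replicate 2 (adjusted p from 0.0606 to 0.341), and was 1.90 without wild-type replicate 1. Sfrp2 was lower at day 0 and higher at day 4 in alpha-KO (-0.93 and 0.63) and was not called in full-KO at any day. Sfrp4 fell in wild type from 8.59, 9.47 and 7.92 CPM to 0.433, 0.542 and 0.750 by day 2. With all libraries edgeR called it between no genotypes. On only the groups compared it was called at day 0 between alpha-KO and wild type (edgeR adjusted p = 0.0314) and between the knockout lines (adjusted p = 0.0285). Without wild-type day 4 replicate 3 it was called at day 4 in alpha-KO (adjusted p = 0.0297) and full-KO (adjusted p = 0.0061), and without alpha-KO day 2 replicate 1 it was called at day 2 between alpha-KO and wild type (adjusted p = 0.0132) and between the knockout lines (adjusted p = 0.00417).

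Dkk2, an antagonist of the Lrp co-receptors, dipped and returned in wild type, with 25.4, 32.5 and 33.9 CPM at day 0, 2.6, 2.44 and 2.56 at day 2 and 36.5, 37.1 and 38 at day 4. It was lower in both knockout lines at every day. At day 0 it had 15.3, 13.3 and 21.4 CPM in alpha-KO, where replicates spread widely, and 1.90 and 1.58 in full-KO. At day 4 it had 9.58, 6.74 and 8.42 CPM in alpha-KO and 10.6, 11.8 and 11.2 in full-KO, below all wild-type libraries, with log2 differences of -2.18 ± 0.14 (SE, edgeR adjusted p = 1.64e-17) and -1.73 ± 0.14 (SE, edgeR adjusted p = 7.33e-15). The alpha-KO difference at day 2, -2.70, was -3.47 without alpha-KO replicate 3. Dkk3, a divergent member that does not bind the Lrp co-receptors in the manner of Dkk1, went the other way at day 4 of full-KO, at 67.2, 71 and 76 CPM against 36.5, 30.2 and 37.5 in wild type (1.04 ± 0.10 SE, edgeR adjusted p = 9.2e-13). In alpha-KO at day 4 it was at 37.4, 33 and 33.6 CPM, within the wild-type range. At day 2 Dkk3 lay above every wild-type library in both lines. It then had 13.25, 13.8 and 17.5 CPM in wild type, 22.1, 25.9 and 24.3 in alpha-KO and 27.6, 27.2 and 27.2 in full-KO. At day 0 full-KO, with 11.8 and 10.9 CPM, lay below the 21.7, 21.5 and 19.8 of wild type, and alpha-KO, with 19.6, 17.9 and 28.1, overlapped wild type.

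Dkk1, the head inducer and a target of canonical signalling, was brief in wild type: 0.409, 0.369 and 0.396 CPM at day 0, 17.4, 12.7 and 14.1 at day 2 and 4.28, 3.16 and 3.68 at day 4. At day 2 it was lower in alpha-KO, at 11.5, 11.1 and 11.2 CPM, and in full-KO, at 7.50, 8.93 and 9.11 (-0.39 and -0.79), but the first was lost without wild-type replicate 1, alpha-KO replicate 2 or alpha-KO replicate 3 (edgeR adjusted p from 0.0511 to 0.206). At day 4 it was higher, at 5.86, 5.32 and 6.17 CPM in alpha-KO and 8.46, 8.83 and 9.59 in full-KO (0.65 ± 0.17 SE, edgeR adjusted p = 0.0016 and 1.28 ± 0.16 SE, edgeR adjusted p = 7.62e-09). At day 0 the 2 full-KO libraries held 0 counts. With 3 counts taken as the floor for the whole group, Dkk1 was at least 4.17-fold lower there than in wild type, which held 19 counts, and at least 13.4-fold lower than in alpha-KO, which held 67.

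**Figure D4:**
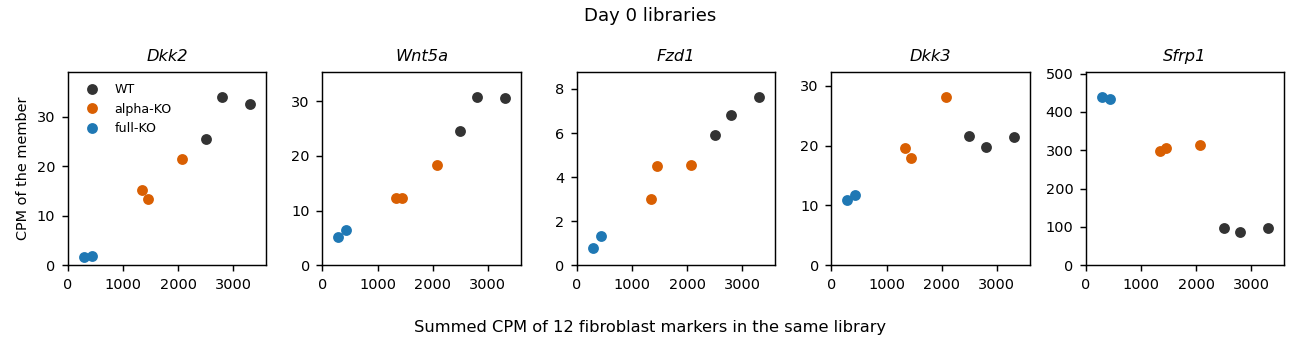
CPM of 5 genes (Dkk2, Wnt5a, Fzd1, Dkk3 and Sfrp1) against the summed CPM of 12 fibroblast markers at day 0, 1 point per library, coloured by genotype. Dkk2, Wnt5a and Fzd1 are lowest in full-KO, where the marker sum is 286.4 to 432.6 CPM, and Sfrp1 is highest there.

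The 12 fibroblast markers were all lower in both knockout lines at day 0, and genes of the set were set against their sum. Per 1000 CPM of marker sum, Fzd1 stood at 2.31 to 2.43 CPM in wild type, 2.19 to 3.12 in alpha-KO and 2.77 to 3.03 in full-KO. Dkk2 stood at 9.82 to 12.1, 9.2 to 11.4 and 4.4 to 5.53 on the same scale, and Wnt5a at 9.24 to 11, 8.51 to 9.26 and 14.7 to 18.0. For these 3 genes the alpha-KO ratio lay close to wild type, and in full-KO only the Fzd1 ratio did, with Dkk2 lower and Wnt5a higher. They were not alone in this: the alpha-KO ratios of Fzd8 (1.78 to 2.61) and Rspo1 (1.27 to 1.78) also lay near wild type (2.07 to 2.48 and 1.47 to 2.08). Other genes that were lower at day 0 had a far higher ratio in full-KO than in wild type. That was so for Fzd2 (7.88 to 10 in wild type, 20.2 to 36.7 in full-KO), Fzd4 (2.03 to 2.88 and 9.9 to 17.8), Fzd6 (4.93 to 8.12 and 26.8 to 45), Axin2 (7.83 to 11.5 and 41 to 71.9) and Rspo1 (1.47 to 2.08 and 5.99 to 6.05). The ratio of Dkk3 was 6.49 to 8.68, 12.4 to 14.6 and 27.2 to 38.1, and that of Sfrp1 was 29.3 to 38.7, 151 to 222 and 1000 to 1530. Both ratios were higher in alpha-KO and highest in full-KO. Dkk3 itself was at 11.8 and 10.9 CPM in full-KO against 21.7, 21.5 and 19.8 in wild type. A ratio of this kind rises in any gene that falls less than the marker sum. Lrp5 was at 91.3 to 103.8 CPM in wild type and at 97.2 and 100.5 in full-KO. Its ratio went from 31.4 to 39 in wild type to 225 and 351 in full-KO. The part of fibroblast-like cells in the day 0 differences was not tested.

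Most R-spondins and their receptors were lower in the knockout lines at day 2: of the 7 tested, none was higher and 5 were lower in alpha-KO, and all 7 were lower in full-KO. The shares over all genes were 19.9% higher and 20.3% lower in alpha-KO, and 23.8% higher and 23.8% lower in full-KO. Lgr4, a receptor for all R-spondins, had 208, 212 and 222 CPM in wild type, 121, 124 and 127 in alpha-KO and 131, 131 and 125 in full-KO, log2 differences of -0.79 ± 0.05 (SE, edgeR adjusted p = 2.01e-18) and -0.73 ± 0.05 (SE, edgeR adjusted p = 1.19e-17). At day 0 alpha-KO was already lower (-0.65) and full-KO was not called (-0.06). By day 4 both lines were slightly higher (0.20 and 0.16), and the second had an adjusted p of 0.055 by edgeR without wild-type replicate 3. Lgr6, at chr1:134983301-135105276, reached 11.1, 8.81 and 11.8 CPM at day 4 of wild type, 2.52, 3.01 and 3.21 in alpha-KO and 4.58, 3.98 and 3.72 in full-KO, with log2 differences of -1.85 ± 0.19 (SE, edgeR adjusted p = 2.73e-11) and -1.37 ± 0.18 (SE, edgeR adjusted p = 1.68e-08). The median of its 40 tested neighbours at that day was 0.338 in alpha-KO, opposite in sign, and -0.278 in full-KO. Lgr5, a stem cell marker and Wnt target, was lower at day 2 with 3.41, 4.54 and 5.31 CPM in wild type, 2.34, 1.51 and 2.27 in alpha-KO and 1.17, 1.37 and 1.21 in full-KO, and at day 4 it was higher in alpha-KO (0.62) and not called in full-KO (-0.20). Rspo3, the R-spondin of vessels and mesoderm, ended highest in alpha-KO, at 24.1, 26.4 and 28.3 CPM against 10.2, 9.11 and 7.07 in wild type and 6.72, 6.66 and 6.94 in full-KO (1.59 ± 0.19 SE, edgeR adjusted p = 6.12e-10 for alpha-KO). Rspo1 was lower in both lines at days 0 and 2, with 7.43, 6.70 and 7.87 CPM in wild type, 4.51, 3.02 and 3.34 in alpha-KO and 4.10, 5.40 and 3.21 in full-KO at day 2, and the highest group means of Rspo2 and Rspo4 were 0.928 and 1.20 CPM.

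The 4 feedback targets were all lower at day 2 in both lines, where 20.3% of all genes were lower in alpha-KO and 23.8% in full-KO. Axin2, a scaffold of the beta-catenin destruction complex and a widely used readout of canonical signalling, was the one gene of the 4 that was lower in all 6 comparisons with wild type. It lies at chr11:108920349-108950783, where another annotated gene overlaps it. In wild type it had 28.6, 27.2 and 21.9 CPM at day 0, 53.2, 54.2 and 51.5 at day 2 and 61.4, 58.8 and 60.1 at day 4. In alpha-KO it had 18.6, 19.5 and 18.1 CPM at day 0, 30.8, 30.2 and 36.8 at day 2 and 44.8, 49.9 and 50.7 at day 4, and in full-KO 17.7 and 20.6 CPM at day 0, 28.9, 32.1 and 30.6 at day 2 and 36.8, 41.2 and 37.4 at day 4. All knockout libraries of a day lay below those of wild type. The log2 differences were -0.47 ± 0.09 (SE, edgeR adjusted p = 2.66e-05), -0.70 ± 0.08 (SE, edgeR adjusted p = 3.4e-10) and -0.31 ± 0.07 (SE, edgeR adjusted p = 0.000491) in alpha-KO, and -0.44 ± 0.10 (SE, edgeR adjusted p = 0.000494), -0.79 ± 0.08 (SE, edgeR adjusted p = 6.2e-12) and -0.64 ± 0.08 (SE, edgeR adjusted p = 9.66e-10) in full-KO. The rise from day 2 to day 4 of wild type, 0.18, was not called under RLE scaling (edgeR adjusted p = 0.054), by DESeq2 (adjusted p = 0.0913) or without replicate 1 or 3 of wild type at day 2 or day 4 (edgeR adjusted p from 0.0635 to 0.102).

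Sp5, a transcription factor that restrains other Wnt targets, peaked at day 2 of wild type, with 3.91, 3.08 and 4.42 CPM at day 0, 33.9, 38.5 and 37.2 at day 2 and 16.2, 17.3 and 13.5 at day 4. Its locus is chr2:70474923-70477729, directly after the window printed above. At day 2 it had 17.4, 15.9 and 18.6 CPM in alpha-KO and 15, 12.1 and 10.9 in full-KO (-1.08 ± 0.12 SE, edgeR adjusted p = 3.91e-10 and -1.52 ± 0.12 SE, edgeR adjusted p = 2e-14). At day 4 neither line was called (-0.02 and 0.03). At day 0 both were lower, at -1.32 and -0.88, and the full-KO call was lost without full-KO replicate 2 (edgeR adjusted p = 0.0506). Nkd1, an inhibitor that binds Dishevelled, rose to 42, 40.4 and 43.2 CPM at day 4 of wild type. It stood at 40.3, 38.2 and 39.1 CPM in alpha-KO and at 19.2, 18.1 and 20.1 in full-KO, which was lower than wild type (-1.13 ± 0.12 SE, edgeR adjusted p = 7.51e-11). Its paralog Nkd2 declined in wild type to 1.23, 1.07 and 0.977 CPM at day 4, and full-KO was then higher, at 3.13, 2.32 and 3.38 CPM (1.43 ± 0.24 SE, edgeR adjusted p = 3.06e-06). The full-KO difference of Nkd2 at day 0 (-0.51) was lost with no low-count filter (edgeR adjusted p = 0.0718) and without wild-type replicate 2 or either full-KO library (adjusted p from 0.0837 to 0.147).

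**Figure D5:**
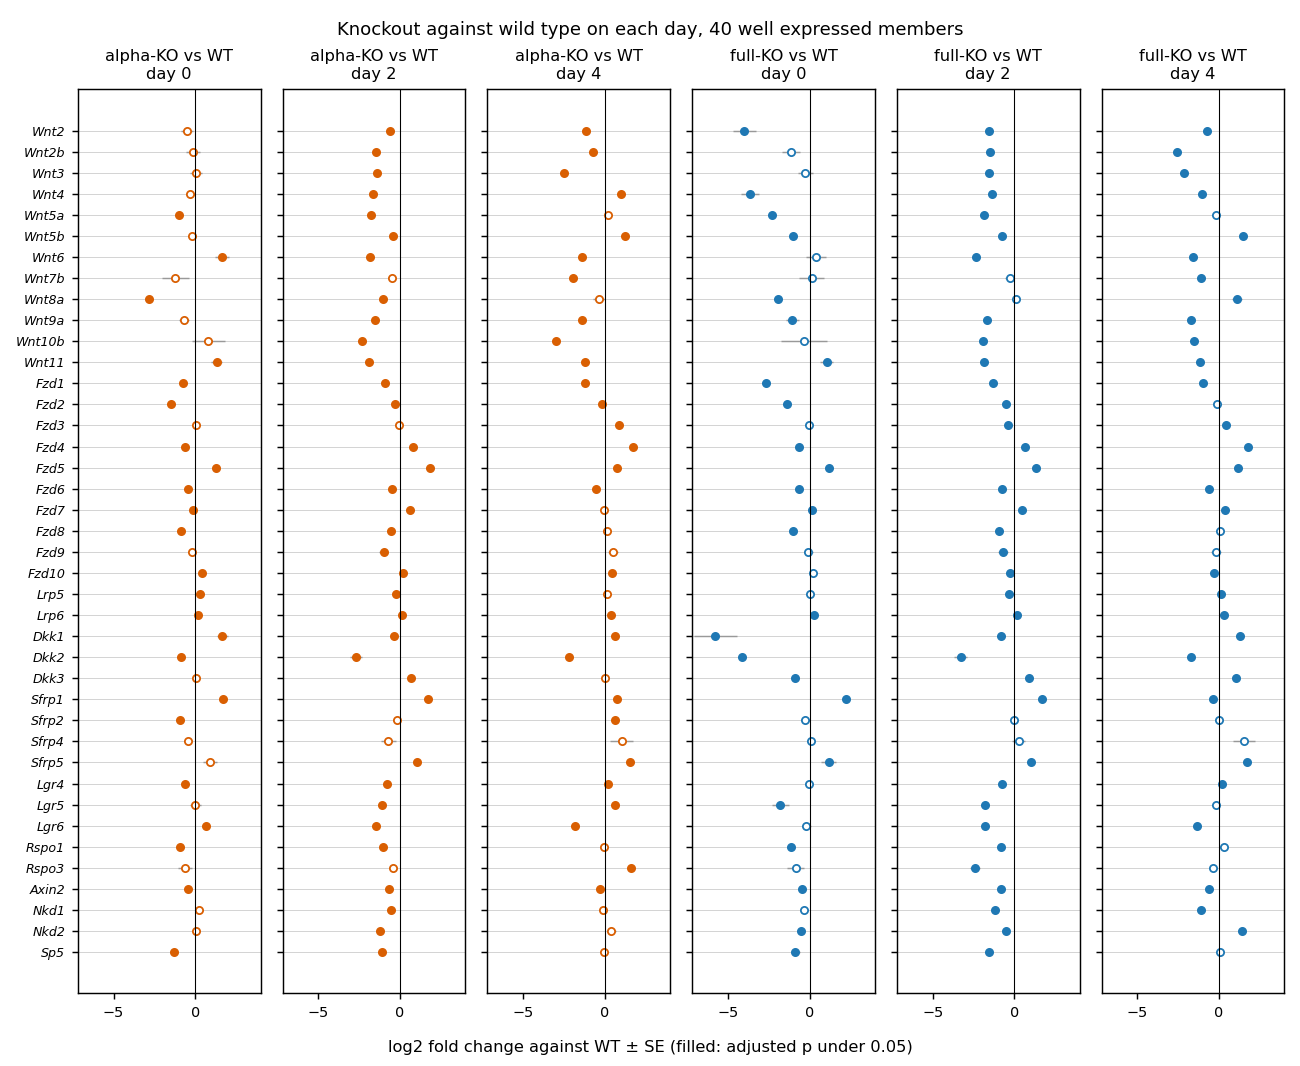
Log2 fold change against wild type of the 40 well expressed genes at days 0, 2 and 4 for alpha-KO and full-KO; bars are standard errors and filled points were called by edgeR at an adjusted p under 0.05. Most ligands lie below 0 at day 2 in both lines, and Fzd5 lies above 0 at every day; the day 0 full-KO point of Dkk1 is a fitted value from 0 counts and is no bound.

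Other genes of the pathway were counted in 6 lists. For reading the day 2 counts, 19.9% of all genes were higher and 20.3% lower in alpha-KO, and 23.8% were higher and 23.8% lower in full-KO; in the change of wild type to day 2 36.7% rose and 34% fell. Of 8 genes for ligand secretion and modification, 7 rose and 1 fell from day 0 to day 2 of wild type. Wls, the carrier that brings Wnt ligands to the cell surface, rose from 32.6 to 255 CPM, and Notum, an enzyme that inactivates secreted ligands, fell by 3.41 on the log2 scale. At day 2 none was higher and 4 were lower in alpha-KO, and 1 was higher and 6 were lower in full-KO. Wls was at 151 and 109 CPM there, -0.76 ± 0.08 (SE, edgeR adjusted p = 1.13e-10) and -1.22 ± 0.08 (SE, edgeR adjusted p = 5.43e-17) on the log2 scale, and the glypicans Gpc3 (-0.84 and -1.25) and Gpc6 (-0.76 and -2.06) were also lower. At day 4 Wls was at 576 CPM in wild type, 252 in alpha-KO and 284 in full-KO, while Porcn, which attaches the lipid to the ligands, was higher in both lines (1.13 and 1.86).

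Of 13 tested genes for receptor turnover and other antagonists, 2 were higher and 9 lower in alpha-KO at day 2, and 4 were higher and 7 lower in full-KO. Frzb, a secreted Wnt-binding protein, was lower in both (-1.11 and -1.16), as was Tpbg (-1.0 and -1.11). Dact2 stood the other way, with day 2 means of 23.5 CPM in wild type, 46.3 in alpha-KO and 37.95 in full-KO. Of 11 receptors and planar polarity genes outside the canonical branch, none was higher and 4 were lower in alpha-KO, and 1 was higher and 7 were lower in full-KO. Ror1, a receptor for Wnt5a, was lower in both (-0.60 and -1.38), and Ptk7 likewise (-0.69 and -0.93). Of 16 genes of Dishevelled, the destruction complex and beta-catenin, 3 were higher and 5 lower in alpha-KO and 4 higher and 7 lower in full-KO. Apc2 had the largest called difference there in both lines (-1.58 and -1.26).

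Of 15 TCF/LEF factors and nuclear partners, 7 were higher and 5 lower in alpha-KO at day 2, and 7 were higher and 6 lower in full-KO. Tcf7l2 was higher in both lines (1.38 ± 0.09 SE, edgeR adjusted p = 1.62e-17 and 1.26 ± 0.09 SE, edgeR adjusted p = 1.84e-16) and Lef1 was lower in both (-1.20 ± 0.10 SE, edgeR adjusted p = 2.65e-13 and -1.25 ± 0.10 SE, edgeR adjusted p = 3.42e-14). Lef1, both a partner of beta-catenin and a target of the pathway, differed even more at day 0, with means of 88.5 CPM in wild type, 8.16 in alpha-KO and 22.3 in full-KO (-3.44 and -1.99). Cdx1, from the list of other target genes, stood the other way at day 0. Its means were 4.59 CPM in wild type, 33.4 in alpha-KO and 8.41 in full-KO. Of 14 other target genes, none was higher and 5 were lower in alpha-KO at day 2, and 2 were higher and 6 lower in full-KO. Lef1, Tcf7, Rnf43, Znrf3 and Notum are in this list and also in an earlier one, so their calls count in both. Ccnd1 was lower in alpha-KO (-0.80), with means of 78.4 CPM in wild type, 44.94 in alpha-KO and 49.77 in full-KO. Tcf7 was lower in both lines (-0.79 and -0.77), and Eomes was higher in full-KO (0.90).

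The same 6 lists were counted at days 0 and 4. Over all genes, 17.7% were higher and 20.9% lower in alpha-KO at day 0 and 16.2% and 17.7% in full-KO, and at day 4 the shares were 28.7% and 24% in alpha-KO and 25.1% and 24.5% in full-KO, so that several of the counts here lie near the share over all genes. Of the 8 secretion genes, none was higher and 3 were lower in alpha-KO at day 0, and 1 was higher and 3 lower in full-KO. At day 4, 2 were higher and 3 lower in alpha-KO, and 2 higher and 5 lower in full-KO. Of the 13 genes for receptor turnover and other antagonists, 3 were higher and 4 lower in each line at day 0. At day 4 that list had 6 higher and 4 lower in alpha-KO and 6 higher and 6 lower in full-KO. Frzb then had means of 2.94 CPM in wild type, 9.04 in alpha-KO and 9.27 in full-KO, the reverse of day 2. In the same order Dact1 had 23.3, 60.5 and 65.2 CPM, and Kremen1 had 115.4, 43.7 and 57.2. The 11 genes outside the canonical branch had 3 higher and 4 lower in alpha-KO and 2 higher and 5 lower in full-KO at day 0, then 7 higher and 3 lower, and 4 higher and 4 lower, at day 4. For the 16 genes of the destruction complex list the day 0 numbers were 2 higher and 2 lower in alpha-KO and 4 higher and 2 lower in full-KO, and the day 4 numbers were 6 higher and 4 lower, and 5 higher and 7 lower. The 15 TCF/LEF genes had 4 higher and 5 lower in alpha-KO and 3 higher and 5 lower in full-KO at day 0, then 10 higher and 2 lower, and 5 higher and 4 lower, at day 4. The 14 other targets had 4 higher and 6 lower, and 1 higher and 5 lower, at day 0, and 4 higher and 3 lower, and 5 higher and 6 lower, at day 4. Gpc4, a glypican, was lower in both lines at day 4 (-1.95 and -1.99).

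The 2 knockout lines were also compared directly. At day 0 full-KO was higher than alpha-KO for 6 of the 48 tested genes and lower for 15, where 14.6% of all genes were higher and 14.4% lower. At day 2 there were 3 higher and 16 lower (12.3% and 13% of all genes), and at day 4 there were 10 higher and 12 lower (15.4% and 17.4%). Of the 18 tested ligands 2 were higher and 2 lower in full-KO than in alpha-KO at day 2. Wnt8a (1.66, 2.42 and 2.91 CPM in alpha-KO against 4.96, 5.35 and 5.53 in full-KO) and Wnt3a were higher and Wnt2 and Wnt6 lower, and the Wnt6 call was lost without alpha-KO replicate 1 or 3 or full-KO replicate 2 (edgeR adjusted p from 0.0565 to 0.0999). Of the 12 receptors none was higher and 8 were lower, with called log2 differences from -0.16 for Fzd7 to -0.50 for Fzd10. Without alpha-KO replicate 1 the edgeR adjusted p was 0.075 for Fzd1, 0.13 for Fzd2 and 0.105 for Fzd7, and without full-KO replicate 3 it was 0.0908 for Fzd2 and 0.073 for Fzd7. At day 4 full-KO was lower for Wnt4 (-2.05 ± 0.12 SE, edgeR adjusted p = 8.75e-18), Wnt2b (-1.88 ± 0.15 SE, edgeR adjusted p = 2.47e-14), Rspo3 (-1.96 ± 0.19 SE, edgeR adjusted p = 1.49e-11) and Sfrp1 (-1.13 ± 0.06 SE, edgeR adjusted p = 1.39e-20), and higher for Wnt8a (1.44), Dkk3 (1.04) and Nkd2 (1.02). At day 0 Wnt2 rested on 2 counts in full-KO, a ratio to wild type of 0.0563 with a 95% counting interval of 0.00664 to 0.213 that covers counting error only.

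Whether the change from day 0 itself differed was tested as an interaction. From day 0 to day 2, 7 of the 48 changed more positively and 15 more negatively in alpha-KO than in wild type, where 17.5% and 14.8% of all genes did so. In full-KO 9 were more positive and 11 more negative (15.7% and 12.8% of all genes), and the total of 20 was 13 without full-KO day 0 replicate 2. From day 0 to day 4 alpha-KO had 14 and 12 (24.2% and 19.7% of all genes), and full-KO 19 and 8 (19.5% and 15.7%). Ligands, 18 of the 48 tested genes, made up 8 of the 15 more negative and 1 of the 7 more positive changes of alpha-KO to day 2. In full-KO they made up 4 of the 11 more negative changes, about their share of the set, and 3 of the 9 more positive ones. The log2 change of Wnt6 differed from that of wild type by -3.52 ± 0.43 (SE, edgeR adjusted p = 9.6e-09) in alpha-KO and -2.76 ± 0.66 (SE, edgeR adjusted p = 0.00108) in full-KO, and that of Wnt11 by -3.21 ± 0.38 (SE, edgeR adjusted p = 2.85e-09) and -2.93 ± 0.44 (SE, edgeR adjusted p = 6.67e-07). The difference for Wnt3 was -1.47 in alpha-KO and -1.31 in full-KO, and the first had an edgeR adjusted p of 0.0815 without alpha-KO day 0 replicate 1. The second was lost with no low-count filter (edgeR adjusted p = 0.0741) and without any of 6 libraries, namely replicate 2 of wild type at days 0 and 2, both full-KO libraries of day 0, and full-KO day 2 replicates 2 and 3 (adjusted p from 0.0517 to 0.167). For Wnt9a, lower in both lines at days 2 and 4, edgeR with all libraries called no difference in the change at either day (-0.82 and -0.62 to day 2, -0.71 and -0.65 to day 4). In alpha-KO the change of Wnt9a to day 2 was called by DESeq2 (adjusted p = 0.0435) and by edgeR on only the groups compared (adjusted p = 0.031), and the change to day 4 was called without alpha-KO day 4 replicate 1 (edgeR adjusted p = 0.0204). Axin2 was not called in alpha-KO either, at -0.23 and 0.16, but to day 2 it was called without wild-type day 0 replicate 1 (edgeR adjusted p = 0.047) or without alpha-KO day 2 replicate 3 (adjusted p = 0.0335). In full-KO its change to day 2 differed by -0.35, a call lost without wild-type day 0 replicate 3, wild-type day 2 replicate 2, full-KO day 0 replicate 2 or full-KO day 2 replicate 1 (edgeR adjusted p from 0.0588 to 0.246).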

How the data were processed

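Counts per gene of 26 bulk RNA-seq libraries were used as the authors deposited them, as 1 table of raw whole-number counts for the series. Per the labels' protocols, RNA was extracted with a column kit and libraries were made with the KAPA Stranded mRNA-Seq kit. The submitters' processing notes name FastQC, STAR 2.7.1a and the build mm10, while for the counting tool, its annotation and its strand setting the sources used here give nothing. Symbols came from GENCODE M21 by gene ID, which matched 55230 of 55471 genes (54573 with the same version, 241 unmatched), and 17 of the genes described overlap another annotated gene. No column of the table lay outside the series' samples.

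Every test was fitted on the whole table with edgeR 4.0.16 in R 4.3.3 (TMM scaling, filterByExpr by group, 9 group means, quasi-likelihood F test, 17 residual df, common BCV 0.0495 (the replicate spread as a coefficient of variation)), with Benjamini-Hochberg adjustment over 18412 genes. The standard error is the absolute log2 fold change divided by the square root of F. The script was tested on simulated data. All 9 groups share 1 estimate of the spread. Fold bounds use a floor of 3 counts over a group. Totals of 13537267 to 20569706 counts set the precision of low genes. Alternatives were RLE scaling, DESeq2 1.42.0, no low-count filter, at least 1 CPM in 2 libraries, a replicate block, a fit of the compared groups only, and leaving out each library. The alternatives were computed for the count of called genes and for the 40 genes with a group mean of at least 5 CPM.

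Genes were named by rule: every gene of the set, with library values for the 40 well expressed ones, and from each pathway list up to 3 called genes with the largest change and a group mean of at least 5 CPM. The set, its roles, the pathway and marker lists and the comparisons were chosen with earlier results of these data known.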

Additional observations from a re-analysis of the deposited data

Results flagged for a closer look

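The changes from day 0 that differed between a knockout line and wild type were tested directly, as interaction terms in edgeR. Of the 48 tested genes, 22 differed in alpha-KO to day 2, 26 in alpha-KO to day 4, 20 in full-KO to day 2 and 27 in full-KO to day 4. Over all genes, 17.5% changed more positively and 14.8% more negatively in alpha-KO to day 2, and 24.2% and 19.7% to day 4. In full-KO these shares were 15.7% and 12.8% to day 2, and 19.5% and 15.7% to day 4. The genes named next had a called difference of at least 2 on the log2 scale. That size was chosen after the values were seen, and genes with 3 or fewer counts in a group used are left out.

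In alpha-KO to day 2, 5 genes changed more negatively than in wild type: the ligands Wnt6 (-3.52), Wnt10b (-3.15) and Wnt11 (-3.21), the antagonist Dkk1 (-2.05) and the R-spondin receptor Lgr6 (-2.09). Wnt10b rested on few counts at day 0, and without alpha-KO day 0 replicate 1 its difference was -2.35 with an edgeR adjusted p of 0.244, without wild-type day 0 replicate 3 its adjusted p was 0.0587, and without wild-type day 0 replicate 2 its difference was -4.39. To day 4 the same direction held for Wnt3 (-2.58), Wnt6 (-3.05), Wnt10b (-3.79), Wnt11 (-2.52) and Lgr6 (-2.48), while Wnt8a (2.50), the receptor Fzd4 (2.31) and Rspo3 (2.22) changed more positively. Without alpha-KO day 0 replicate 1 the edgeR adjusted p of Wnt10b to day 4 was 0.112, and without wild-type day 0 replicate 2 its difference was -5.03.

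In full-KO to day 2, Wnt6 (-2.76) and Wnt11 (-2.93) changed more negatively, and Wnt4 (2.29) and Wnt8a (2.07) more positively. Without full-KO day 0 replicate 1 Wnt4 was at 2.23 with an edgeR adjusted p of 0.0644. To day 4 Wnt6 (-2.01), Wnt11 (-2.21) and Sfrp1 (-2.60) changed more negatively, and Wnt4 (2.58), Wnt5a (2.12), Wnt5b (2.46), Wnt8a (3.04), Fzd4 (2.40) and Dkk2 (2.38) more positively. Without the same library Wnt6 to day 4 was at -1.91 with an adjusted p of 0.0985, and without full-KO day 0 replicate 2 its adjusted p was 0.0505. Wnt4 rested on 2 counts in each full-KO library at day 0, and at day 4 it was still lower in full-KO than in wild type. Wnt4, Wnt5a, Wnt5b, Wnt8a, Fzd4 and Dkk2 all lay below wild type in full-KO at day 0, beside lower fibroblast marker sums. The part of fibroblast-like cells was not tested.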

How the results depend on the processing

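Among the 40 well expressed genes, no called difference changed direction under any alternative run. The direction of differences that were not called was not compared. Counts of called genes stayed within 1.5 times of those reported for all 15 comparisons, except for the change from day 0 to day 2 in full-KO against wild type: 20 genes were called, 13 without full-KO day 0 replicate 2, and 13 to 21 over the libraries left out. For the 40 well expressed genes in the 15 comparisons, RLE scaling kept the call in 598 of 600 and DESeq2 in 585, with 11 lost and 4 gained. Leaving out 1 library kept 4195, lost 166 and gained 39. The replicate numbers do not pair the samples, since the correlations of same-numbered deviations ran from -0.124 to 0.137. With the replicate block the number of called genes was the same in 14 of the 15 comparisons and 20 against 19 for full-KO against alpha-KO at day 2, where Wnt5b was gained (edgeR adjusted p = 0.0494). Between RLE and TMM scaling the median of all genes moved by at most 0.021 on the log2 scale. Depth limits what was low: genes under 1 CPM rest on few counts, and full-KO at day 0 has only 2 libraries.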
